A study of Homo sapiens with 9 samples.

Results

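The genes described here encode the nuclear subunits of the 5 enzyme complexes of mitochondrial oxidative phosphorylation. Members were the protein-coding genes outside the mitochondrial chromosome whose symbols begin with NDUFA, NDUFB, NDUFC, NDUFS or NDUFV and a number, with UQCR, with COX4 to COX8 or with ATP5, plus SDHA to SDHD and CYC1. The rule found 87 genes among the 27615 of the longest deposited gene list. Of these, 38 belong to complex I, 4 to complex II, 10 to complex III, 14 to complex IV and 21 to complex V. The rule used names only and no measured value. It also takes in COX7A2L, which is known as an assembly factor of respiratory supercomplexes, ATP5S, which is no structural subunit, and NDUFA4, which was named for complex I and is now counted with complex IV. Lists ended at different lengths, and a gene missing from a list is not a gene at 0. Altogether 48 members were listed in all 9 libraries, 29 more in the 8 libraries other than rimonabant replicate 1, and 10 in fewer. All 77 members of the first and second kind passed the minimum of a mean of 1 FPKM (fragments scaled to gene length and library total) and were tested, the 29 in a separate fit of 8 libraries with 2 rimonabant libraries.

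The libraries are RNA-seq of MDA-MB-231, an established human breast cancer line of the triple-negative kind. The 3 groups of 3 libraries were cells given DMSO as vehicle, cells given rimonabant, which blocks the cannabinoid receptor CB1, and cells given TXX-1-10, a rimonabant derivative with a hydrophilic group on its pyrazole ring that the study selected as an inhibitor of the protein HPIP. The design asks what TXX-1-10 does to gene expression beside its vehicle and its parent compound. The dose and time of the sequenced cells are not given in the sources used here. All results come from this cell line alone, and as nothing says that libraries came from separate cultures, p-values measure the spread between these samples only, which may be technical.

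Oxidative phosphorylation passes electrons from NADH and succinate through complexes I to IV to oxygen, pumps protons across the inner mitochondrial membrane and lets them flow back through ATP synthase, complex V. Nuclear genes encode most subunits and mitochondrial DNA the rest, so both genomes supply parts of complexes I, III, IV and V, while complex II is wholly nuclear. Promoters of nuclear subunit genes are known for sites of the transcription factors NRF1, GABP of the ETS family and YY1.

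Promoter sequences are shown first because these genes are known for such shared sites. RefSeq windows of 300 bases on GRCh38.p14, from 250 before to 50 after the gene start, matched 67 of the 87 members. They were searched on both strands for GCATGCGC (NRF1 core), CCGGAAGT (ETS core) and AAGATGGC (YY1 core), and no member promoter held overlapping matches of different motifs. The NRF1 core was found in 13 of the 67 (19.4%, against 3.27% of all 27305 promoters), the ETS core in 10 (14.9% against 4.44%) and the YY1 core in 11 (16.4% against 3.03%). At least 1 of the 3 stood in 28 (41.8% against 9.94%). The stretches below end before the transcripts. Capitals mark motif matches, and a match is a description of letters, not a bound site. ATP5MC1 is shown as a called member without a match. COX8A, also called, has 1 ETS core in its window, which the printed stretch ends inside, so it carries no capitals. NDUFB4, COX5B and COX6A1 were picked for their matches, and NDUFB4 and COX5B after their values were seen. All lie on the plus strand, at chr17:48892678-48892764 for ATP5MC1, chr11:63974370-63974606 for COX8A, chr3:120596086-120596308 for NDUFB4, chr2:97645812-97646039 for COX5B and chr12:120437863-120438089 for COX6A1.
ATP5MC1: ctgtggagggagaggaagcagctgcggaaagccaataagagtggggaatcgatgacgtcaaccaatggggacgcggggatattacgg
COX8A: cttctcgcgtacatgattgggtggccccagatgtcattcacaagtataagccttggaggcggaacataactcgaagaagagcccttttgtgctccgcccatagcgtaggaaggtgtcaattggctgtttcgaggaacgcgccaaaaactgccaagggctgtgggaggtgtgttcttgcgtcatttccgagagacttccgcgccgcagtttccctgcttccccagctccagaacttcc
NDUFB4: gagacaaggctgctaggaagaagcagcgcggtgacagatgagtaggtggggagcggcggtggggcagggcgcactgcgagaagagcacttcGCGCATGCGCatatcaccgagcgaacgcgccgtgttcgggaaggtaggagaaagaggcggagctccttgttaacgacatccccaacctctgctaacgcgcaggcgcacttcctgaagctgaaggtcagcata
COX5B: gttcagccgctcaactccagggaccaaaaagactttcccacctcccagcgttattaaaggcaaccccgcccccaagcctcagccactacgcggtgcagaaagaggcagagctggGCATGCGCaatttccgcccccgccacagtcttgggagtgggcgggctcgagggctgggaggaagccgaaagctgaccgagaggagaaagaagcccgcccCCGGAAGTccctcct
COX6A1: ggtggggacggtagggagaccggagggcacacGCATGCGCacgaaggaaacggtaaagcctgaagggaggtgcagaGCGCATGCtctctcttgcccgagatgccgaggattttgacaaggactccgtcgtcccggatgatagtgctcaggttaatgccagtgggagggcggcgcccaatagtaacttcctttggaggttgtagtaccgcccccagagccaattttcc

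The NDUFB4 stretch holds 2 NRF1 core matches that overlap on opposite strands, COX5B holds 1 NRF1 core and 1 of the 2 ETS cores of its window, and COX6A1 holds 2 NRF1 cores. Expression of these genes under TXX-1-10 did not follow 1 pattern. NDUFB4, an accessory complex I subunit, fell by 0.44 on the log2 scale (adjusted p = 0.00137, edgeR), COX5B stood at 0.05 (adjusted p = 0.698) and COX6A1 at 0.07 (adjusted p = 0.39). Of the 26 tested members with a match, 16 were lower under TXX-1-10 than under vehicle, with a median log2 fold change of -0.292. Of the 36 without a match, 30 were lower, with a median of -0.367. Of all genes, 43.8% were lower in the 9-library fit and 40.6% in the 8-library fit. Without the length-shifted libraries described below, 21 of the 26 and 34 of the 36 were lower. With libraries scaled to their total over the tested genes, 12 of the 26 and 18 of the 36 were lower, with medians of -0.139 and -0.214.

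The line was checked first. VIM, CD44, CAV1 and KRT18 were listed in all 9 libraries at 20.8 to 329 FPKM, ESR1 and PGR reached at most 8 and 13 counts in 4 lists each, and CDH1 was listed at 0 in 4 lists. EPCAM, set as low for this line, was listed in 7 libraries at 4.47 to 5.37 FPKM. ERBB2 was listed in all 9 libraries at 6.9962 to 9.523 FPKM, with 1329 to 1754 counts. Unlike ESR1 and PGR, it was thus plainly detected in this triple-negative line. Markers of leukocytes, endothelium and fibroblasts (PTPRC, PECAM1 and COL1A2) were at or under 0.172 FPKM wherever listed. The total that the FPKM rest on ran from 17078370 to 19277808 per library. Rimonabant replicate 1 and TXX-1-10 replicate 3 stood apart: across the 4236 genes tested in 9 libraries, their ratio to the rest of their own group fell with gene length (Spearman rho -0.694 and -0.692, a description). Members are short genes, with a median length of 2952 bases against 5771 for all tested genes, and 47 of 48 members in rimonabant replicate 1 and 48 of 48 in TXX-1-10 replicate 3 stood above their group's other libraries, by medians of 0.246 and 0.265 on the log2 scale. The counts over all members and by complex against vehicle, and those of TXX-1-10 against rimonabant, are therefore given with and without these libraries.

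In vehicle cells the subunits were expressed over a wide range. The 77 tested members had a median of 31.1 FPKM, against 20.5 FPKM for the 4236 genes. Members tested in 8 libraries only are not among the 4236, so these medians rest on different listing rules. In complex I mean levels ran from 1.79 FPKM for NDUFA9 to 283 for NDUFS5, in complex III from 17.9 for UQCR11 to 143 for CYC1, and in complex IV from 15.9 for COX7A2L to 267 for COX8A. Complex V held both a low and the highest member, ATP5S at 2.31 and ATP5F1B, the catalytic beta subunit, at 499 FPKM. Complex II was the narrowest of the 5, from 9.98 FPKM for SDHC to 25.6 for SDHB. The lengths behind these FPKM are those deposited, which count all exons of a gene, so levels between genes depend on them.

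TXX-1-10 against vehicle asks how the derivative changed these transcripts. Most tested subunits of complexes I, III, IV and V were lower as scaled here, mostly by less than 1 on the log2 scale, and ATP synthase had the lowest median. With libraries scaled to the tested-gene total, 37 of the 77 were lower and 6 higher. In complex II 1 of 4 subunits, SDHA, passed the test. In 9 libraries 35 of 48 members were lower (72.9%, against 43.8% of all 4236 genes), 2 were higher (against 30.5%) and 11 did not pass the test, at an adjusted p under 0.05 in edgeR's quasi-likelihood test. Their median log2 fold change was -0.339, against -0.095 for all genes. Among the 29 members of the 8-library fit, 21 were lower (72.4%, against 40.6% of 9369 genes) with a median of -0.333 against -0.042. None of the 29 was higher by edgeR, against 34.7% of genes, also at an unadjusted p under 0.05 and by limma, whereas DESeq2 called 1 higher. With both length-shifted libraries left out, 43 of the 48 were lower (against 50.4% of all genes) and 2 higher (against 34.4%), with a median of -0.453, and 24 of the 29 were lower (against 44.1%) with a median of -0.445.

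The sizes were small beside those of other genes. A called log2 fold change of 1 or more in size was reached by 1 of the 48 members, ATP5MC1, against 11.8% of the genes of that fit, and by 0 of the 29 in the 8-library fit by edgeR, DESeq2 and limma, unadjusted p included, against 12.7%. Scaling set part of the picture for all genes. The all-gene median moved from -0.095 to 0.006 with DESeq2 size factors and 0.076 with the tested-gene total, and the split of all genes from 30.5% higher and 43.8% lower to 42.1% and 31.7% with the latter. Of the members, 23 of the 48 and 14 of the 29 were lower with the tested-gene total, with medians of -0.17 and -0.197, and by complex 14 of 34, 1 of 4, 4 of 9, 4 of 11 and 14 of 19 in complexes I to V, the median of complex II turning to 0.03. The 48 members' median relative to that of all genes was -0.244 as scaled here and -0.246 under both alternatives. In these bulk libraries, fewer cells with a transcript and less of it per cell cannot be told apart.

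**Figure D1:**
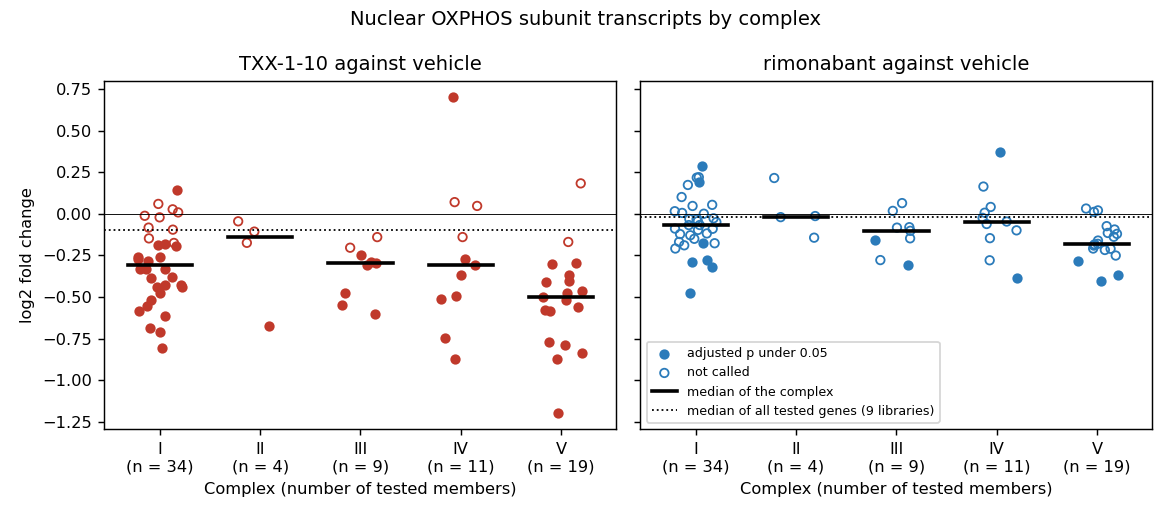
Log2 fold change of each tested member by complex for TXX-1-10 and for rimonabant, each against vehicle. Each point is 1 gene (filled where called, adjusted p under 0.05), short bars are medians of the complex, the dotted line is the median of all tested genes, and the lowest point is ATP5MC1 in complex V at -1.20 under TXX-1-10.

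Complex V, ATP synthase, had the lowest median of the 5 complexes. Of its 19 tested members 17 were lower and 2, ATP5PD and ATP5S, did not pass, with a median of -0.501. The share of all genes that were lower was 43.8% in 9 libraries and 40.6% in 8. Leaving out the length-shifted libraries gave 18 of the 19 lower. The F1 head, which makes ATP, was lower in 5 of 5 subunits with a median of -0.521 and a range of -0.839 to -0.404. The c-ring, the rotor in the membrane that protons turn, was lower in 3 of 3 with a median of -0.873. The peripheral stalk was lower in 3 of 4 (median -0.426) and the membrane accessory subunits in 5 of 5 (median -0.462). ATP5IF1, which inhibits ATP hydrolysis by the enzyme, was lower too, by a log2 fold change of -0.41 (adjusted p = 0.00187, edgeR).

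ATP5MC1 (ENSG00000159199, chr17:48892765-48895871, plus strand), 1 of 3 genes for the same c-ring protein, fell most. Its FPKM were 46.4, 45.8 and 45.7 in vehicle replicates 1 to 3, 40.3, 31.1 and 32.8 in the rimonabant replicates and 20.5, 18.1 and 21.5 in the TXX-1-10 replicates. The 3 groups did not overlap, vehicle being high, rimonabant between and TXX-1-10 low. The log2 fold change under TXX-1-10 was -1.20 (SE 0.10, adjusted p = 1.46e-06, edgeR), a level 56.5% lower.

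The other c-ring genes fell as well, to a different extent. ATP5MC3 read 21.2, 20.8 and 22.1 FPKM in vehicle and 10.7, 10.7 and 13.5 in TXX-1-10 libraries, a log2 fold change of -0.87 (SE 0.11, adjusted p = 4.28e-05, edgeR). ATP5MC2 read 36.9, 36.9 and 35.7 against 23.4, 22.4 and 27.3 FPKM, a log2 fold change of -0.58 (SE 0.08, adjusted p = 9.11e-05). Vehicle and TXX-1-10 libraries did not overlap for either gene. These genes encode the same mature protein and have related copies in the genome, so shared reads leave their separate values uncertain.

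ATP5F1B (chr12:56638175-56646068, minus strand), the most expressed member, read 503, 498 and 495 FPKM in vehicle, 416, 371 and 375 in rimonabant and 276, 268 and 321 in TXX-1-10 libraries. Again the groups did not overlap, and TXX-1-10 replicate 3 was the highest of its group. The log2 fold change was -0.79 (SE 0.08, adjusted p = 5.06e-06, edgeR).

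**Figure D2:**
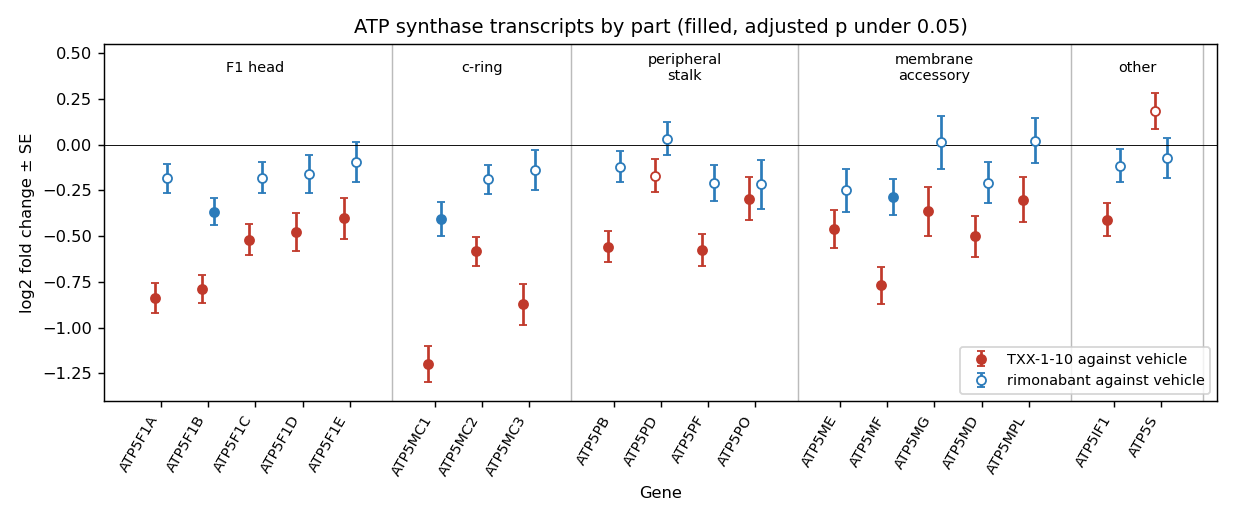
Log2 fold change against vehicle for the ATP synthase subunits grouped by part of the enzyme, for both compounds, with SE bars and filled points where called. Under TXX-1-10 the 3 c-ring genes lie between -1.20 and -0.58.

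Complex I, which oxidises NADH, was lower in 24 of 34 tested members, higher in 1 and not called in 9, with a median of -0.307. Among all genes 43.8% were lower in 9 libraries and 40.6% in 8. Without the length-shifted libraries 28 of the 34 were lower and 1 higher. Among the core subunits, which hold the redox centres, 4 of 6 were lower (median -0.221), and among the accessory ones 20 of 28 were lower and 1 higher (median -0.331). NDUFS1 (chr2:206114817-206159603, minus strand), the large iron-sulfur core subunit, read 11.8, 11.8 and 11.9 FPKM in vehicle, 10.4, 10.6 and 10.3 in rimonabant and 7.70, 8.10 and 7.91 in TXX-1-10 libraries. Its groups were tight and separate, and it fell by 0.58 on the log2 scale under TXX-1-10 (SE 0.04, adjusted p = 4.98e-07, edgeR).

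The accessory subunits NDUFB3 and NDUFB2 of the membrane arm had the largest changes of complex I. NDUFB3 read 39.7, 39.2 and 35.4 FPKM in vehicle, 34.5 and 34.1 in rimonabant replicates 2 and 3, and 21.5, 19.7 and 24.1 in TXX-1-10 libraries, a log2 fold change of -0.81 (SE 0.08, adjusted p = 1.7e-06, edgeR). NDUFB2 read 15.2, 15.9 and 15.1 in vehicle, 12.2 and 12.5 in rimonabant and 8.92, 8.69 and 10.6 in TXX-1-10 libraries, a log2 fold change of -0.71 (SE 0.07, adjusted p = 2.65e-06). For both genes every TXX-1-10 library was below every vehicle library and below rimonabant replicates 2 and 3.

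At the ends of the level range, NDUFS5 fell by 0.62 on the log2 scale (SE 0.10, adjusted p = 0.000278, edgeR) and NDUFA9 by 0.38 (SE 0.10, adjusted p = 0.00305). NDUFA4 read 37.6, 37.0 and 34.9 FPKM in vehicle and 29.4, 28.4 and 33.9 in TXX-1-10 libraries and fell by 0.26 (adjusted p = 0.0149). The 1 higher gene, NDUFA10, an accessory subunit, read 7.40, 7.12 and 7.32 in vehicle and 7.75, 8.06 and 8.27 in TXX-1-10 libraries, a log2 fold change of 0.14 (adjusted p = 0.039). The NDUFA10 call was lost without any vehicle library or TXX-1-10 replicate 2 or 3 (adjusted p 0.0609 to 0.121), and that of NDUFA4 without vehicle replicate 1 or TXX-1-10 replicate 1 or 2 (0.0528 to 0.0579).

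Complex II, succinate dehydrogenase, divided by subunit. SDHA (chr5:218241-256700, plus strand), the flavoprotein that oxidises succinate, read 23.3, 23.7 and 24.4 FPKM in vehicle, 22.9, 21.1 and 20.6 in rimonabant and 14.5, 14.6 and 15.7 in TXX-1-10 libraries. The TXX-1-10 values lay below all others, with a log2 fold change of -0.67 (SE 0.06, adjusted p = 1.59e-06, edgeR). SDHA has related copies in the genome, so shared reads leave its level uncertain.

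The other 3 subunits did not pass the test. The log2 fold change was -0.17 for the iron-sulfur subunit SDHB (95% interval -0.42 to 0.07, adjusted p = 0.178, edgeR), -0.11 for the membrane anchor SDHC (-0.27 to 0.05, adjusted p = 0.197) and -0.04 for the anchor SDHD (-0.23 to 0.14, adjusted p = 0.648). SDHB values of 26.3, 25.5 and 24.9 FPKM in vehicle overlapped 21.8, 20.4 and 25.7 under TXX-1-10. SDHC (10.6, 10.4 and 9.0 against 8.84, 9.07 and 9.89) and SDHD (23.5, 23.1 and 21.4 against 20.7, 20.9 and 24.3) overlapped too, TXX-1-10 replicate 3 being the high one. The median of the 4 genes was -0.140. Without the length-shifted libraries all 4 were lower, SDHB at -0.274, SDHC at -0.156 and SDHD at -0.124.

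Complex III, which passes electrons to cytochrome c, was lower in 7 of 9 tested members, against 43.8% of all genes in 9 libraries and 40.6% in 8. UQCRB and UQCR11 did not pass, and the median was -0.296. All 9 were lower without the length-shifted libraries. CYC1 (chr8:144095027-144097525, plus strand), the haem-carrying cytochrome c1, read 138, 144 and 148 FPKM in vehicle, 125, 110 and 112 in rimonabant and 89.7, 90.0 and 104 in TXX-1-10 libraries. Its groups did not overlap, and it fell by 0.60 on the log2 scale under TXX-1-10 (SE 0.07, adjusted p = 2.57e-05, edgeR). UQCRQ, a small subunit, read 124, 119 and 116 in vehicle and 73.4, 78.6 and 94.5 in TXX-1-10 libraries, a log2 fold change of -0.55 (SE 0.11, adjusted p = 0.0015). The core protein UQCRC2 moved less, by -0.30 (SE 0.05, adjusted p = 0.000237), as did the hinge protein UQCRH, by -0.29 (SE 0.11, adjusted p = 0.042). UQCRH shares sequence with UQCRHL, and its call was lost without any vehicle library, TXX-1-10 replicate 1 or 2 or rimonabant replicate 3 (adjusted p 0.0548 to 0.133).

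Complex IV, cytochrome c oxidase, was lower in 7 of 11 tested members and higher in 1, with a median of -0.309. Lower genes made up 43.8% of all genes in 9 libraries and 40.6% in 8. With the tested-gene total 4 of the 11 were lower and 2 higher. Among the members of the 9-library fit, as scaled at first, the median was -0.309 as well, and -0.29 with NDUFA4 counted here. With the length-shifted libraries left out 8 of the 11 were lower and 1 higher. COX8A (chr11:63974607-63976543, plus strand), a small membrane subunit, read 271, 276 and 253 FPKM in vehicle, 246, 177 and 190 in rimonabant and 143, 129 and 164 in TXX-1-10 libraries. No group overlapped another, rimonabant replicate 1 lying close to vehicle, and COX8A fell by 0.87 on the log2 scale (SE 0.12, adjusted p = 9.17e-05, edgeR). COX7B read 19.8, 18.3 and 17.4 in vehicle and 10.1, 9.78 and 13.3 in TXX-1-10 libraries and fell by 0.74 (SE 0.10, adjusted p = 2.72e-05).

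COX7A2L (chr2:42333546-42425088, minus strand) went the other way. It read 16.0, 16.1 and 15.7 FPKM in vehicle, 23.1, 19.4 and 19.5 in rimonabant and 24.6, 24.4 and 28.8 in TXX-1-10 libraries. Vehicle was lowest and TXX-1-10 highest, with no overlap between groups. The log2 fold change under TXX-1-10 was 0.70 (SE 0.08, adjusted p = 2.64e-05, edgeR), or 1.63-fold. Its relative COX7A2, a subunit of the oxidase itself, read 78.8, 77.8 and 77.1 in vehicle and 51.9, 51.3 and 62.7 in TXX-1-10 libraries and fell by 0.49 (SE 0.09, adjusted p = 0.000426).

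Alternative forms of the complex IV subunits were unequal in level. COX6B1 fell by 0.27 on the log2 scale (SE 0.09, adjusted p = 0.0236, edgeR), a call lost without any vehicle library or TXX-1-10 replicate 1 or 2 (adjusted p 0.053 to 0.0875), while COX4I1 at -0.14 (95% interval -0.38 to 0.10, adjusted p = 0.269) and COX6A1 at 0.07 (-0.09 to 0.23, adjusted p = 0.39) did not pass. The forms known from other tissues were scarcely read. COX7A1, the heart and muscle form, stood at 0.966 to 2.27 FPKM in 5 lists, COX6B2, the testis form, at 0.0307 to 0.199 in 4, and COX8C was listed at 0 in 2.

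**Figure D3:**
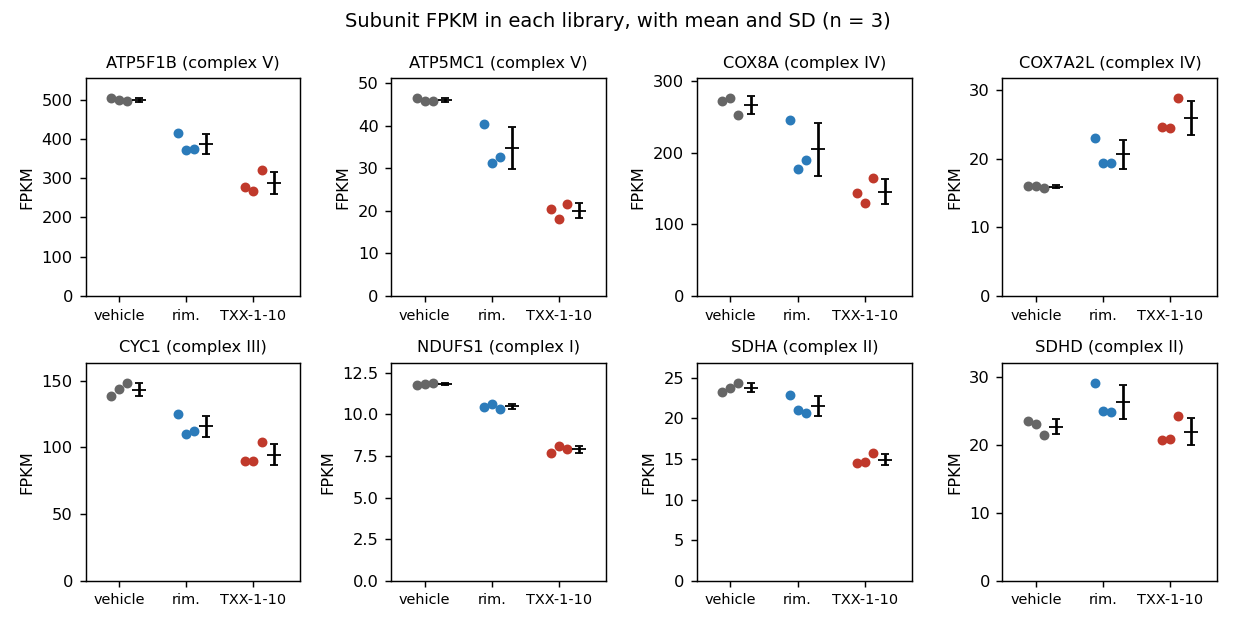
FPKM per library (y axis) for 8 members in vehicle, rimonabant and TXX-1-10 libraries, with the mean and SD of each group (n = 3) beside the points. ATP5MC1 falls from 46.0 ± 0.379 (SD, n = 3) in vehicle to 20.0 ± 1.77 under TXX-1-10, whereas COX7A2L rises from 15.9 ± 0.198 to 26.0 ± 2.48.

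Rimonabant against vehicle asks what the parent compound did. Few members passed: 11 of the 77 were lower and 3 higher. In 9 libraries 7 of 48 were lower (14.6%, against 25.2% of all genes) and 2 were higher (against 23.7%), with a median of -0.067 against -0.02 for all genes. In the 8-library fit 4 of 29 were lower (13.8%, against 22.8%) and 1, NDUFA6, was higher (against 23.7%), with a median of -0.147 against 0.003. A log2 fold change of 1 or more in size was reached by 0 of the 77 by edgeR, DESeq2 and limma, unadjusted p included, against 1.13% of genes in 9 libraries and 1.49% in 8. The count depended on the length-shifted libraries. Without them 30 of the 48 were lower (against 38.0% of all genes) and 4 higher (against 30.7%), with a median of -0.168, and 13 of the 29 were lower (against 31.0%) and 2 higher (against 30.9%). By complex this gave 13 of 34, 1 of 4, 7 of 9, 7 of 11 and 15 of 19 lower. The counts of complexes I and II were near or under the share of all genes. Without rimonabant replicate 1 alone 15 of the 48 were lower (31.2%, against 27.0% of all genes).

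The 11 members lower under rimonabant were NDUFB1, NDUFB2, NDUFB8, NDUFS1 and NDUFV3 of complex I, CYC1 and UQCRC2 of complex III, COX8A of complex IV and ATP5F1B, ATP5MC1 and ATP5MF of complex V. Complex II gave no call by edgeR, where SDHA at -0.14 (adjusted p = 0.0522) and SDHD at 0.22 (adjusted p = 0.0569) had an unadjusted p under 0.05. DESeq2 called both and limma SDHA. NDUFB8, an accessory subunit, had the lowest value at -0.48 (SE 0.15, adjusted p = 0.0187, edgeR), followed by ATP5MC1 at -0.41 (SE 0.09, adjusted p = 0.00563), COX8A at -0.38 (SE 0.12, adjusted p = 0.0239) and ATP5F1B at -0.37 (SE 0.07, adjusted p = 0.00273). Of these, the rule for named members left out NDUFB8, which was named after its value was seen. CYC1 fell by 0.31 (adjusted p = 0.00523) and NDUFB2 by 0.32 (adjusted p = 0.00771). NDUFS1, at -0.18 (SE 0.04, adjusted p = 0.00539, and 0.285 with the length correction), and UQCRC2, at -0.16 (adjusted p = 0.0199), were smaller changes in genes with little spread.

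The 3 higher genes were COX7A2L at 0.37 (SE 0.08, adjusted p = 0.00455, edgeR), NDUFA6 at 0.29 (SE 0.09, adjusted p = 0.0177) and NDUFA10 at 0.19 (SE 0.05, adjusted p = 0.016). NDUFA10 read 8.86, 8.12 and 7.95 FPKM in rimonabant libraries, above all 3 vehicle libraries. The COX8A call was lost without rimonabant replicate 2 or 3 or vehicle replicate 1 or 2 (adjusted p 0.0707 to 0.0878), and the calls of UQCRC2, NDUFA10 and NDUFB2 without vehicle replicate 2 or rimonabant replicate 3, without vehicle replicate 2 and without rimonabant replicate 2. Medians by complex were -0.067, -0.016, -0.102, -0.046 and -0.180 for complexes I to V, those of I, II and IV turning to 0.002, 0.055 and 0.024 with the tested-gene total.

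Both comparisons share the vehicle libraries, so their values are given side by side. Of the 77 tested members, 11 were lower and 2, COX7A2L and NDUFA10, higher under both compounds. Another 45 were lower under TXX-1-10 and not called under rimonabant, and for 33 of these the compounds themselves differed in the direct test. These counts rest on fits that kept the length-shifted libraries, and the share of all genes in the same classes was not counted. Without those libraries 30 of the 48 and 13 of the 29 were lower under rimonabant, so which members count as not called depends on them.

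TXX-1-10 against rimonabant asks what the change in structure added. In 9 libraries TXX-1-10 gave lower values for 34 of 48 members (70.8%, against 39.4% of all genes). Of the 48, 1, COX7A2L, was higher (against 25.1%), and the median was -0.307 against -0.077. The 48 had to be listed in rimonabant replicate 1, where none had fewer than 1180 counts and 47 stood above their group's other libraries. Such a listing can favour lower values under TXX-1-10. A fit lacking that library gave 24 of the 48 lower (against 38.1% of all genes), with a median of -0.228 against -0.067. How far the listing shaped the count was not tested. In the 8-library fit 10 of 29 were lower (34.5%, against 33.9%), close to the share of all genes, with a median of -0.234 against -0.036. None of these 29 was higher by edgeR, against 26.7% of genes, with 1 at an unadjusted p under 0.05 by edgeR and limma and 1 called by DESeq2. No member reached an absolute log2 fold change of 1 by edgeR, DESeq2 or limma, unadjusted p included, against 5.93% of genes in 9 libraries and 6.41% in 8. Without both length-shifted libraries 41 of the 48 (against 45.8% of all genes) and 19 of the 29 (against 39.9%) were lower.

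By complex, the members with lower values under the derivative were 15 of 34 in complex I (median -0.256), 2 of 4 in complex II (-0.207), 5 of 9 in complex III (-0.209), 7 of 11 in complex IV (-0.248) and 15 of 19 in complex V (-0.341). The 44.1% of complex I is near the share of all genes, and in the 8-library fit 6 of its 20 members were lower, against 33.9% of genes. Without the length-shifted libraries the counts were 24, 2, 8, 9 and 17. The 3 c-ring genes were all lower, with a median of -0.736. ATP5MC1 differed by -0.79 (SE 0.10, adjusted p = 5.45e-05, edgeR), ATP5MC3 by -0.74 (SE 0.11, adjusted p = 0.00022) and NDUFB3 by -0.66 (SE 0.09, adjusted p = 5.03e-05). In complex II, SDHA differed by -0.53 (SE 0.06, adjusted p = 1.69e-05) and SDHD by -0.26 (SE 0.08, adjusted p = 0.02). SDHD read 29.1, 24.9 and 24.9 FPKM in rimonabant libraries, above vehicle and TXX-1-10, and this call was lost without rimonabant replicate 1 or TXX-1-10 replicate 1 or 2 (adjusted p 0.0623 to 0.0763).

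For other members the compounds did not differ in the test. Differences were -0.05 for NDUFA10 (95% interval -0.17 to 0.07, adjusted p = 0.446, edgeR), -0.15 for SDHB (-0.40 to 0.09, adjusted p = 0.243) and -0.09 for COX4I1 (-0.34 to 0.15, adjusted p = 0.472). These intervals still hold differences of up to 0.40 on the log2 scale, so they do not show that the compounds act alike.

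**Figure D4:**
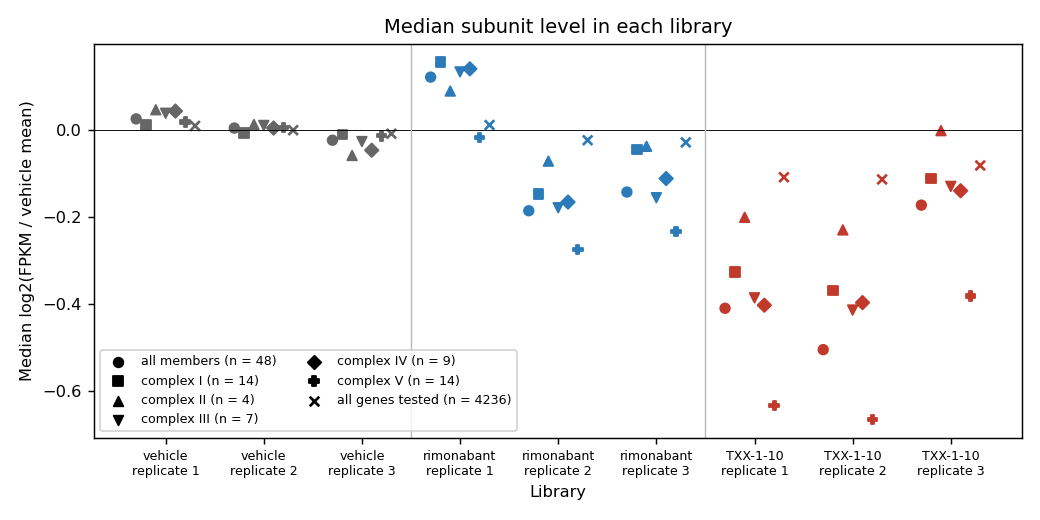
Median log2 ratio to the vehicle mean of the 48 members and of each complex in each library (y axis), with all 4236 genes beside them. TXX-1-10 replicates 1 and 2 lie at -0.41 and -0.505 for the 48 members and replicate 3 at -0.173, while rimonabant replicate 1 lies at 0.121.

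The libraries of a compound were uneven across the members as a set. The median log2 ratio of the 48 members to the vehicle mean was -0.41, -0.505 and -0.173 in TXX-1-10 replicates 1 to 3 and 0.121, -0.186 and -0.143 in the rimonabant replicates, against -0.114 to -0.082 and -0.029 to 0.011 for all genes. Every TXX-1-10 library was thus below vehicle for the members, whereas rimonabant replicate 1 was above. For complex V the TXX-1-10 medians were -0.633, -0.666 and -0.382 and the rimonabant medians -0.018, -0.275 and -0.234, and for complex II the TXX-1-10 median in replicate 3 was -0.002. Across the 48 members the log2 fold change under TXX-1-10 had a Spearman rho of -0.417 with the vehicle FPKM and 0.2 with gene length, a description over genes that share libraries and are not independent.

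The mitochondrial genome encodes the remaining subunits, and its 13 protein-coding genes were all tested. Under TXX-1-10, 11 were lower (84.6%, against 43.8% of all 4236 genes) and 1 higher (against 30.5%). Of the 13, 10 were lower past an absolute log2 fold change of 1, against 11.8% of all genes in either direction. The median was -1.514, against -0.339 for the 48 nuclear members. MT-CO1, the catalytic subunit of complex IV, read 8835, 8691 and 8908 FPKM in vehicle, 8189, 7401 and 7345 in rimonabant and 2030, 2002 and 2255 in TXX-1-10 libraries. TXX-1-10 was far below the rest, with a log2 fold change of -2.07 (SE 0.08, adjusted p = 5.76e-09, edgeR). MT-CO2 and MT-CO3 stood at -2.03 and -1.87. The others past 1 were MT-ND4L at -1.69, MT-CYB at -1.64, MT-ND6 at -1.57, MT-ND4 at -1.51, MT-ATP6 at -1.45, MT-ND3 at -1.36 and MT-ND5 at -1.21.

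The exceptions were MT-ND2, a complex I subunit, at -0.08 (adjusted p = 0.401, edgeR), and MT-ATP8, of complex V, at 0.24 (adjusted p = 0.00125). MT-ATP8 overlaps MT-ATP6, MT-ND4L overlaps MT-ND4 and MT-ND6 lies antisense, with no strand setting given, so their separate values are uncertain. Under rimonabant 3 of the 13 were lower (23.1%, against 25.2% of all genes), close to the share of all genes, and the median was -0.115. Mitochondrial transcripts made up 7.60 to 8.47% of tested counts in vehicle and rimonabant libraries and 4.22 to 4.64% under TXX-1-10. With those reads taken out of the total, 36 of the 48 nuclear members were lower (against 47.4% of all genes) and 1 higher (against 27.3%). Their median was -0.387, against -0.143 for all genes.

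**Figure D5:**
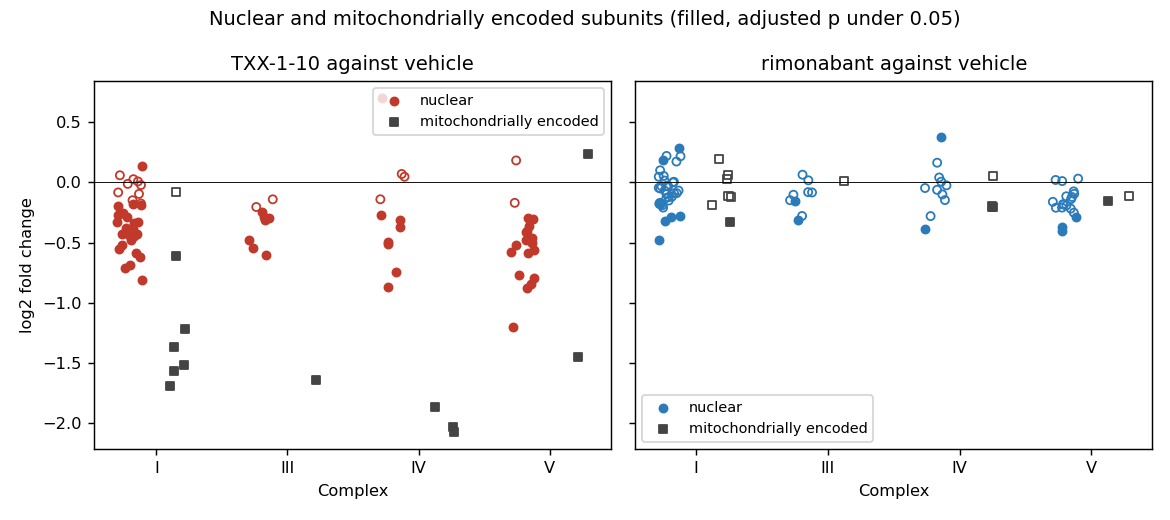
Log2 fold change against vehicle under TXX-1-10 (left) and rimonabant (right) for nuclear members (circles) and mitochondrially encoded subunits (squares) of complexes I, III, IV and V, each point 1 gene, filled where called. Under TXX-1-10 MT-CO1 lies at -2.07 and MT-ATP8 at 0.24.

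The other 10 members were not tested. NDUFA13, a complex I subunit, was listed in 7 libraries at 3.16 and 3.45 FPKM in vehicle replicates 1 and 3, 3.75 in rimonabant replicates 2 and 3, and 5.98, 5.38 and 4.98 in TXX-1-10 libraries. NDUFV2, a core subunit, stood at 1.17 to 2.76 and UQCRHL at 1.45 to 2.42 FPKM in 7 lists each. NDUFA7 was listed in 5 libraries at 0.290 to 1.04 FPKM and NDUFA4L2 in 4 at 0.0209 to 0.174. With COX7A1, COX6B2 and COX8C above, ATP5MGL, at 0 in 2 lists, and ATP5MF-PTCD1, a readthrough gene at 0 to 0.0205 FPKM in 3, make up the rest.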

How the data were processed

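RNA-seq of 9 MDA-MB-231 libraries was used, made with oligo(dT) selection. The strand setting of the counting is not given in the sources used here. Per the submitters' processing notes, reads were aligned with HISAT2 2.0.5 and counted with featureCounts 1.5.0-p3; genome build and annotation are not given, and coordinates of 27590 of 27615 genes equal those of GENCODE 29 on GRCh38. The authors deposited, per library, raw counts of reads per gene and FPKM, scaled by gene length and a library total; each gene list ends at a different place (4237 to 27615 genes). Library size was set to the total recovered from count, FPKM and length. It is 17078370 to 19277808, which limits precision by counting error only.

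Counts of genes listed in all 9 libraries (4236 with a mean of at least 1 FPKM) were fitted with edgeR 4.0.16 in R 4.3.3, all groups in one quasi-likelihood fit without covariates, adjusted by Benjamini-Hochberg over all genes tested. Genes of 8 lists came from a fit of the 8 libraries other than rimonabant replicate 1 (9369 genes). A call is an adjusted p under 0.05. Replicates within a group differed beyond sampling noise (chi-square per degree of freedom 2.29 to 42.2), so none was counted as a duplicate. On simulated data for TXX-1-10 against vehicle over 4236 genes, 100 of 100 genes changed 1.5-fold and 100 of 100 changed 3-fold were recovered, with 12 false calls. The simulation drew independent counts with the same spread for every gene and no length-related shift. Its smallest change, 1.5-fold, was larger than the members' median change. It therefore checks the code and does not give the error rate of the calls here.

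Members and gene lists were chosen with earlier results of these data known. Named members were, per complex and compound, the 2 called members with the largest change whose 3 and 3 FPKM values did not overlap, any member past a log2 fold change of 1, SDHA to SDHD, alternative forms, and the highest and lowest vehicle level. From the lists of assembly factors, electron carriers and ATP export, and mitochondrial genes, those past a log2 fold change of 1 were named, and every tested regulator. Alternatives covered scaling (TMM, DESeq2 1.42.0, tested-gene total, total without mitochondrial reads), FPKM minima, limma 3.58.1 on log2(FPKM + 1) and log2(FPKM + 0.1), the groups fitted, a replicate block, a length correction and libraries left out. COX4I2 and COX6A2 were not analysed here.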

Additional observations from a re-analysis of the deposited data

Results flagged for a closer look

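NDUFA13, an accessory subunit of complex I, was listed in 7 of the 9 libraries and so entered no test, yet its mean under TXX-1-10 was 5.44 FPKM, above each vehicle library that listed it. Its counts were 146 and 161 in vehicle replicates 1 and 3, 191 and 188 in rimonabant replicates 2 and 3, and 312, 268 and 248 in the TXX-1-10 libraries. The difference was not tested.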

How the results depend on the processing

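For the 48 members under TXX-1-10 against vehicle, TMM gave 28 lower (median -0.242) and DESeq2 31 (-0.24). The tested-gene total gave 4 higher, 23 lower and a median of -0.17. The other settings that kept all 9 libraries gave 35 to 37 lower, and the total without mitochondrial reads and the replicate block gave 1 higher. Leaving out each library gave 1 to 2 higher, 1 without any vehicle library or TXX-1-10 replicate 2 or 3. Lower members then ran from 27 (without TXX-1-10 replicate 2) to 40 (without TXX-1-10 replicate 3). For rimonabant against vehicle, higher members numbered 5 with DESeq2, 6 with the tested-gene total, 5 with the length correction with or without block, 4 without both length-shifted libraries and 1 in 8 libraries, and 1 (without vehicle replicate 2) to 4 (without TXX-1-10 replicate 3) leaving out each library. Lower members numbered 11, 4, 14 (12 with block), 30 and 15 in the same order, and 4 (without vehicle replicate 2 or rimonabant replicate 3) to 15 (without rimonabant replicate 1) leaving out each library. The median turned to 0.002 with the tested-gene total and ran from -0.168 without rimonabant replicate 1 to 0.004 without rimonabant replicate 2. TXX-1-10 against rimonabant gave 21 to 41 lower leaving out each library, lowest without TXX-1-10 replicate 1 or 2 and highest without replicate 3. The same comparison gave 24 lower with TMM, the tested-gene total or only 2 groups fitted, and 28 with DESeq2.

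For the 29 members of the 8-library fit, higher members under TXX-1-10 numbered 1 with TMM, DESeq2 and the length correction with or without block, 2 with the tested-gene total and 0 to 1 leaving out each library. The median was -0.197 with the tested-gene total. Lower members numbered 17 with TMM or DESeq2 and 14 with the tested-gene total. Leaving out each library gave 15 (without TXX-1-10 replicate 1) to 24 (without TXX-1-10 replicate 3) lower. Under rimonabant, 2 were higher with TMM, the tested-gene total, an FPKM minimum of 5, limma at pseudocount 1, only 2 groups fitted, the block, the length correction and without both length-shifted libraries, 4 with the length correction and block, and 0 to 2 leaving out each library. Lower members were 13 with only 2 groups fitted and without both libraries, and 1 (without vehicle replicate 1 or 2 or rimonabant replicate 2) to 13 (without TXX-1-10 replicate 3) leaving out each library. Against rimonabant, 1 was higher with TMM, DESeq2, the tested-gene total, the block and the length correction with block, and 0 to 1 leaving out each library. Lower members were 17 with the length correction, 19 without both libraries and 7 (without rimonabant replicate 3) to 19 (without TXX-1-10 replicate 3) leaving out each library.

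Deviations of libraries with the same replicate number correlated at -0.074 to 0.043 between vehicle and either compound. Between compounds they correlated at -0.789 to 0.828, and the length-shifted library carries a different replicate number in each compound. The values between compounds therefore do not tell whether replicate numbers pair the libraries. The replicate block gave 35 lower and 1 higher of the 48 under TXX-1-10, 6 and 2 under rimonabant and 30 and 1 for TXX-1-10 against rimonabant.

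Of the named members' values under alternatives, 1086 called ones stayed called, 73 lost the call and 0 reversed, while of uncalled ones 84 became called and 17 changed sign. The tested-gene total gave COX4I1 0.03 and SDHC 0.065 under TXX-1-10, SDHC 0.059 under rimonabant and 0.006 between compounds. SDHC under rimonabant was 0.098 with the length correction and 0.096 with the block too. SDHD under TXX-1-10 was 0.053, 0.055 and 0.126 with TMM, DESeq2 and the tested-gene total, and NDUFA10 between compounds 0.037, 0.038 and 0.051. Without both length-shifted libraries COX6A1 under TXX-1-10 was -0.004 and UQCR11 between compounds -0.044, and leaving out each library they ran from -0.004 to 0.119 and from -0.056 to 0.218. The cause of these changes was not tested. Depth bounds only counting error.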

Other observations

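Genes around the respiratory chain were measured with the same fits, from lists chosen with earlier results known. Of 39 tested assembly factors, 20 were lower and 5 higher under TXX-1-10, with a median log2 fold change of -0.195. The 51.3% lower stands against 43.8% of all genes in 9 libraries and 40.6% in 8. Under rimonabant 8 were lower (20.5%, against 25.2% and 22.8%) and 2 higher, with a median of -0.088. NDUFAF3 and ACAD9, assembly factors of complex I, fell by 1.12 (adjusted p = 1.15e-07, edgeR) and 1.03 (adjusted p = 1.87e-08). Of 19 tested electron carriers and ATP export genes, 12 were lower (63.2%) and 4 higher under TXX-1-10 (median -0.345), and 4 lower (21.1%) and 1 higher under rimonabant (median -0.027). Genes of the synthesis of ubiquinone, which carries electrons to complex III, moved in both directions. PDSS1 and COQ2 fell by 1.71 (adjusted p = 5.98e-09, edgeR) and 1.13 (adjusted p = 1.64e-06). COQ4 fell by 0.34, whereas PDSS2 was higher by 0.94 (adjusted p = 2.51e-07), COQ8A by 0.41 (adjusted p = 5.37e-05), COQ5 by 0.28 (adjusted p = 0.00585) and COQ9 by 0.16 (adjusted p = 0.0481), and COQ6 at -0.20 did not pass. These 6 were named after their values were seen. Under rimonabant PDSS1 stood at -0.56 and COQ2 at -0.36.

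Of 12 known transcriptional regulators of these genes, 10 were tested, and they did not move together. Under TXX-1-10 ESRRA was higher by 0.60 (adjusted p = 5.77e-05, edgeR) and GABPA by 0.47 (adjusted p = 8.58e-05), while GABPB1 fell by 0.43 (adjusted p = 0.000425), TFAM by 0.47 (adjusted p = 2.1e-06), PPRC1 by 0.45 (adjusted p = 0.00149) and the coactivator PPARGC1B by 0.66 (adjusted p = 0.000206). NRF1 at -0.15, YY1 at 0.11, POLRMT at 0.02 and TFB2M at -0.02 did not pass the test. Under rimonabant PPARGC1B fell by 0.95 (adjusted p = 0.000147) and PPRC1 by 0.64 (adjusted p = 0.00041). PPARGC1A and TFB1M, each listed in 7 libraries, entered no test. PPARGC1A ranged from 1.85 to 2.105 FPKM under TXX-1-10, above every other library that listed it (0.6036 to 0.7703 in vehicle, 0.8144 to 0.8411 in rimonabant). TFB1M ranged from 3.338 to 3.455 FPKM under TXX-1-10, below its vehicle values of 3.959 to 4.414 but above its rimonabant values of 2.525 to 3.031.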
